A study of Mus musculus with 22 samples.

Results

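The 9 genes described here encode the interleukin-1 (IL-1) family and interleukin-6 (IL-6) as mouse embryonic fibroblasts (MEFs) can make or sense them. They are the agonists *Il1a*, *Il1b*, *Il33* and *Il18*, the receptor antagonist *Il1rn*, the receptor chains *Il1r1*, *Il1rap* and *Il1rl1*, and *Il6*. They were chosen by name and found among the 55401 gene identifiers of the deposited count table. RNA was sequenced from 22 libraries of MEFs that had been passaged serially, which takes primary fibroblasts to senescence, and the libraries of a group stand for MEFs of different embryos. In the *S6K1* set, 4 WT libraries were early (passage 3), 4 WT libraries were late (passage 8) and 3 late libraries lacked *S6K1* (KO). In the *S6K1/S6K2* set, 4 early and 4 late libraries were WT, and 3 late libraries lacked both S6 kinases (DKO). The groups analysed here hold no KO or DKO MEFs at passage 3, and the labels name no treatment other than passaging. According to the methods, KO MEFs had WT littermates as controls, whereas those set against DKO MEFs were taken from different mothers, bred earlier, so genotype and litter cannot be told apart in that set.

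IL-1α and IL-1β both bind the receptor chain encoded by *Il1r1*, which then recruits the accessory chain encoded by *Il1rap*. The antagonist encoded by *Il1rn* occupies the same receptor without signalling. *Il1rl1* encodes ST2, the receptor of IL-33, in a membrane-bound and a soluble form, and it uses the same accessory chain. In senescent fibroblasts, IL-1 signalling through NF-κB drives the transcription of IL-6 and of chemokines, which make up much of the inflammatory senescence-associated secretory phenotype (SASP). IL-1β and IL-18 are made as precursors that caspase-1 cuts, and macrophages are a well-known source of IL-1β.

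The genes lie on 6 chromosomes of the mouse genome build GRCm38.p6 (RefSeq). *Il1a* (chr2:129299609-129310186) and *Il1b* (chr2:129364569-129371164) are neighbours on the minus strand, 54382 bases apart, and *Il1rn* lies elsewhere on the same chromosome (chr2:24336860-24351491). *Il1r1* (chr1:40222480-40316201) and *Il1rl1* (chr1:40404864-40465418) are part of a row of receptor genes on the plus strand of chromosome 1. *Il33* (chr19:29925113-29960718), *Il18* (chr9:50554700-50581841), *Il1rap* (chr16:26581509-26730128) and *Il6* (chr5:30013114-30019975) stand alone. The counts were summed over each gene, so the start sites of *Il1rl1* that lead to its membrane-bound and soluble forms cannot be separated in them.

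The sequences just upstream of *Il1b* and *Il6* are shown because these cytokine genes gave the largest passage and KO differences described here. Each is written 5′ to 3′ on the gene's strand and ends before the annotated gene, with motif matches in capitals. The *Il1b* stretch is chr2:129371165-129371389 on the minus strand, and the *Il6* stretch is chr5:30012864-30013113 on the plus strand, both from RefSeq GRCm38.p6.
Il1b: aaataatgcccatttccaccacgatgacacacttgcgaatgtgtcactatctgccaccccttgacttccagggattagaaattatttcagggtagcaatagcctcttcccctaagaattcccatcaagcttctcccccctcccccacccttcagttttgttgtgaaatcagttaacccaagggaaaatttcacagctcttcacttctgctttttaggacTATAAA
Il6: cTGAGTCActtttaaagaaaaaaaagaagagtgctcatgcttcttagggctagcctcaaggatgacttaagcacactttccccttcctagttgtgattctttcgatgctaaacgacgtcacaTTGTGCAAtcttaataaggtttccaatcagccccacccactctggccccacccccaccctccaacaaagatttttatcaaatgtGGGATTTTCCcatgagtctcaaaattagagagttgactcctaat

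In the 250 bases before each annotated start, both strands were searched for an NF-κB consensus. The same was done for the AP-1 consensus TGANTCA. The C/EBP consensus searched was TTGCNNAA. The TATA box was searched as TATAAA. *Il6* held the NF-κB match GGGATTTTCC 44 to 35 bases before its start and TGAGTCA at 249 to 243. It also held TTGTGCAA at 128 to 121, where the C/EBP letters match on the opposite strand. Of 32851 mouse promoters of the same length, 1.41% held the NF-κB letters, 6.75% the AP-1 letters and 9.56% the C/EBP letters. *Il1b* held only TATAAA, 31 to 26 bases before the start that the promoter table gives, which lies inside the annotated gene, and 12.4% of promoters hold it. A match of letters is a description, and none shows that a factor binds there.

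The study also measured *Il1a* and *Il1b* by RT-qPCR, with the mouse primers shown next, which tell a reader which stretch of each transcript that assay reads.
Il1a forward: cgcttgagtcggcaaagaaat
Il1a reverse: tggcagaactgtagtcttcgt
Il1b forward: tgccaccttttgacagtgatg
Il1b reverse: tgatgtgctgctgcgagatt
Matched to the GENCODE vM1 coding transcripts, the *Il1a* pair spans bases 36 to 133 of a transcript of 1974 bases (98 bases), across the start codon, and the *Il1b* pair spans bases 119 to 256 of 1356 (138 bases), within the coding sequence.

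The total count per library was 10742454 to 17314832 (median 14651363.5), at which 3 counts equalled 0.161 to 0.290 CPM (counts scaled to library size by TMM), a limit that covers counting error only. *Rps6kb1*, which encodes S6K1, was at 14.2 to 23 CPM in KO and 20.4 to 28.3 CPM in DKO libraries, against 55.6 to 75.3 and 64.6 to 87.5 CPM in the late WT libraries of their sets. *Rps6kb2*, which encodes S6K2, was at 0.484 to 1.36 CPM in DKO and 8.71 to 16.4 CPM in all late WT libraries. Fibroblast markers such as *Col1a1* were high, with 10 genes summing to 19956 to 40438 CPM. Marker lists of other cells summed to 4.13 to 17.1 (mast cells), 5.16 to 16.8 (endothelium), 1.21 to 51.4 (epithelium and keratinocytes) and 0.185 to 2.08 CPM (T cells). Their genes were uneven. *Tpsb2* and *Fcer1a* (mast cells) had no count in the 22 libraries, and *Cdh5* (endothelium), *Krt5* (keratinocytes) and *Cd3e* (T cells) had at most 3. By contrast, *Gata2* of the mast cell list had 57 to 247 counts, *Kdr* (endothelium) 16 to 97 and *Krt18* (epithelium) 12 to 758. Macrophage markers (19 genes) were present in every library, and their sum rose from 476 to 1115 CPM in early to 5434 to 11280 CPM in late WT MEFs of the *S6K1* set, and from 603 to 2019 to 7496 to 12886 CPM in the other set (19 and 18 of 19 genes passed the test). It was 3615 to 4915 CPM in late KO MEFs, where 0 of 19 genes passed against late WT MEFs with edgeR (14 at an unadjusted *P* under 0.05, and 5 with DESeq2), and 924 to 3462 CPM in late DKO MEFs, where 17 of 19 were lower than in late WT MEFs. The share of all genes that passed in either direction was 12.9% and 13.2% with passage in the *S6K1* and *S6K1/S6K2* sets. Against late WT MEFs it was 0.0425% for KO (10.6% unadjusted) and 4.78% for DKO. In such bulk RNA, fewer cells of a kind and less RNA per cell cannot be told apart. The labels do not give embryo sex, which may be uneven between the groups. Its 5 marker genes (*Xist*, *Ddx3y*, *Eif2s3y*, *Kdm5d* and *Uty*) had a median log2 fold change of 1.77 in KO against late WT MEFs (4 of 5 higher). In DKO against late WT MEFs it was −1.55 (1 of 5 higher), and 0 of 5 passed with edgeR in either comparison.

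Per kilobase of exon, which allows genes to be compared, mean levels over the 22 libraries spanned from 37.7 CPM per kilobase for *Il1rl1* to 0.0115 for *Il1a*. *Il1rn* followed at 15.2, then *Il6* at 4.89, *Il1r1* at 3.67, *Il18* at 3.19 and *Il1rap* at 2.18. *Il33* (0.574) and *Il1b* (0.246) were low. Thus the ST2 receptor and the IL-1 antagonist were the most abundant of these transcripts in MEFs, and *Il1a* and *Il1b* were the rarest.

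**Figure D1:**
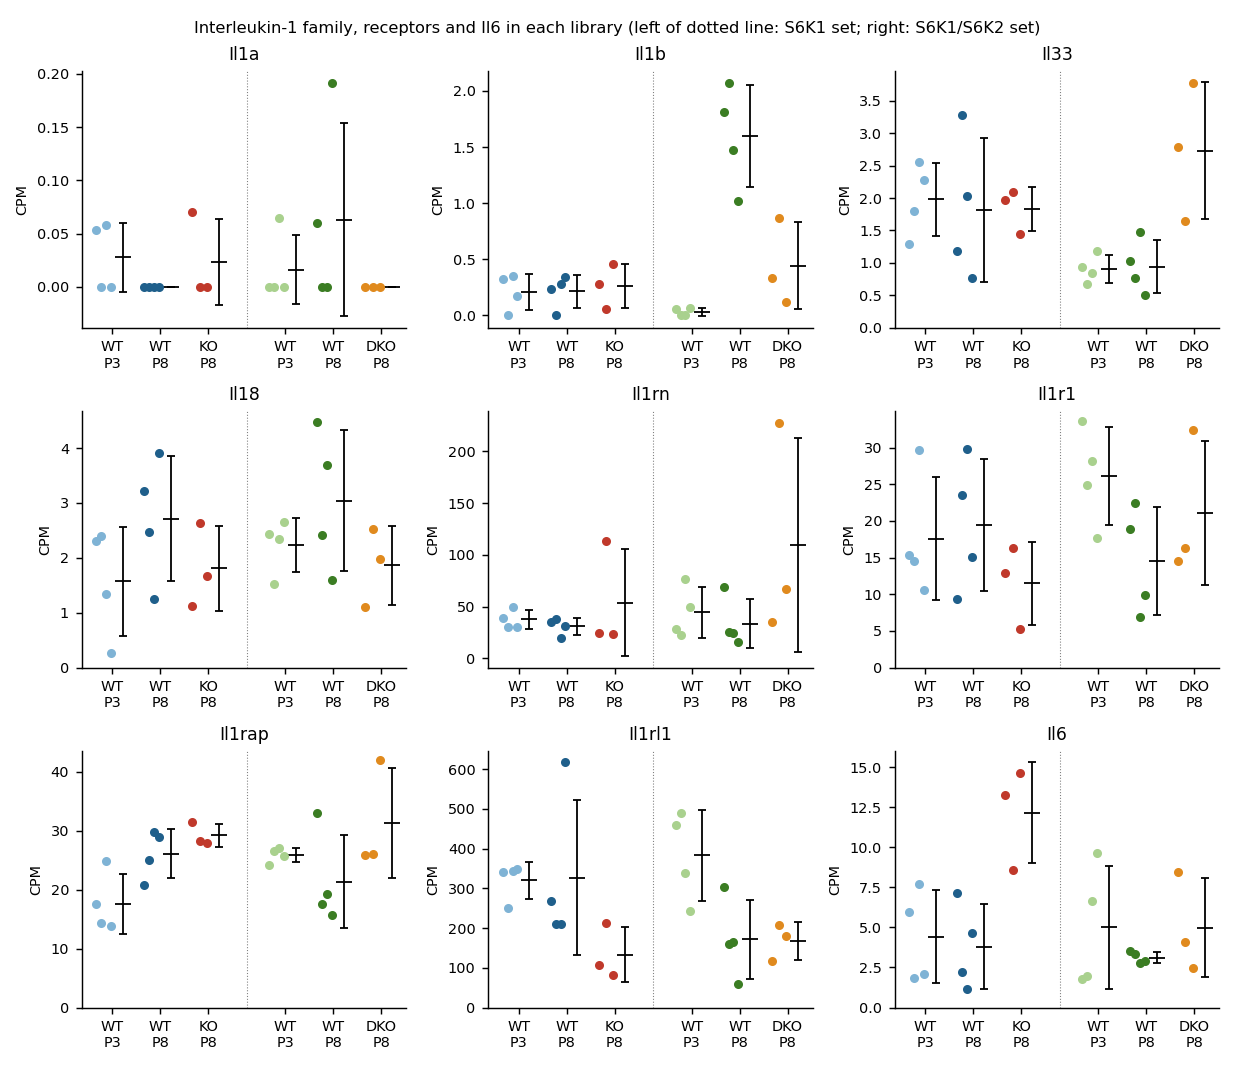
CPM (TMM-scaled, vertical axes, each with its own range) of the 9 genes in each of the 22 libraries, by group (P3, passage 3; P8, passage 8). Points are libraries, and the dash and bars are the mean and SD. *Il1b* in late WT MEFs of the *S6K1/S6K2* set lies above every other group, and *Il6* in all 3 late KO libraries lies above the WT libraries of that set.

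In each set, passage was read as the difference of late from early WT libraries, and genotype as that of KO or DKO from late WT libraries, to ask how senescence and the S6 kinases affect these genes. The test was the quasi-likelihood F test of edgeR, and its *P* values were adjusted by Benjamini-Hochberg over the 14132 genes of the *S6K1* set or the 14365 of the *S6K1/S6K2* set that passed a filter on low counts, and log2 fold changes are given with their standard error (SE). Of the 9 genes, 7 passed that filter in the *S6K1* set and 8 in the *S6K1/S6K2* set, where *Il1b* passed because of its late WT libraries. The median log2 fold change of all genes tested was within 0.04 of 0 in each comparison.

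*Il1b* rose with passage in the *S6K1/S6K2* set, the only one of the 9 genes that passed the test for late against early WT MEFs in either set, where 13.2% of all genes passed in this set and 12.9% in the other. In early WT MEFs of the *S6K1/S6K2* set, the 4 libraries had 1, 0, 0 and 1 counts (0.0304 ± 0.0353 CPM, SD, n = 4). Late WT libraries of that set had 30, 30, 20 and 16 counts (1.59 ± 0.454 CPM). All 4 late libraries were above all 4 early libraries, and the 96 counts against 2 gave a ratio of 51.8 after scaling, with a 95% counting interval of 13.9 to 433. Such an interval, here and below, is of counts pooled over libraries and leaves out the spread between them. The fitted log2 fold change was 5.38 (SE 0.77, adjusted *P* = 0.00131, edgeR), and it stayed between 5.03 and 5.83 when each library was left out (adjusted *P* at most 0.00684). Because 0 or 1 count was behind each early value, the size of the fold is less certain than its direction. *Il1b* entered the tests of this set through its late WT libraries, the group where it is high. Its *P* values here are therefore not independent of that group's level. In the *S6K1* set it was below the count filter, so the sets were not tested alike.

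No such rise was seen in the *S6K1* set. *Il1b* had 6, 0, 6 and 2 counts in early WT, 3, 0, 5 and 4 in late WT and 4, 1 and 6 in late KO libraries. These were 0.212 ± 0.160, 0.214 ± 0.149 and 0.265 ± 0.197 CPM (SD, n = 4, 4 and 3), with overlapping ranges. The ratio of late to early WT counts was 0.948, with a 95% counting interval of 0.401 to 2.21, and exact two-sided permutation tests gave *P* = 1 for late against early WT and *P* = 0.743 for KO against late WT (the smallest they can give are 0.0286 and 0.0571). Tested directly as an interaction over the 22 libraries and 14886 genes, the passage effect in the *S6K1* set minus that in the *S6K1/S6K2* set was −5.39 on the log2 scale (SE 1.26), with an unadjusted *P* of 0.000369 and an adjusted *P* of 0.0508, just short of the threshold of 0.05. It passed with DESeq2 (adjusted *P* = 0.00933), without the count filter (0.0452) and without early WT replicate 2 of the *S6K1* set (0.0201). Summed macrophage markers were raised at passage 8 in both sets, and their part in the *Il1b* counts was not tested.

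In late DKO MEFs, *Il1b* had 4, 9 and 2 counts (0.444 ± 0.385 CPM, SD, n = 3). All 3 libraries were below the 4 late WT libraries of the set. The counting ratio was 0.245, with a 95% counting interval of 0.132 to 0.425 that leaves out the spread between libraries. The fitted log2 fold change of −1.92 (SE 0.63), which takes that spread in, had an unadjusted *P* of 0.0103 and an adjusted *P* of 0.119 (edgeR) and did not pass. Macrophage markers were lower in the same libraries, and their part in this difference was not tested. Late DKO MEFs were higher than early WT MEFs, at 15 counts against 2 (log2 3.46, SE 0.91, adjusted *P* = 0.0224). This call was lost without early WT replicate 2 (adjusted *P* = 0.0578), early WT replicate 3 (0.0510) or DKO replicate 2 (0.120), the library with 9 counts. The effect of KO minus that of DKO on *Il1b* was 2.14 (adjusted *P* = 0.516).

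**Figure D2:**
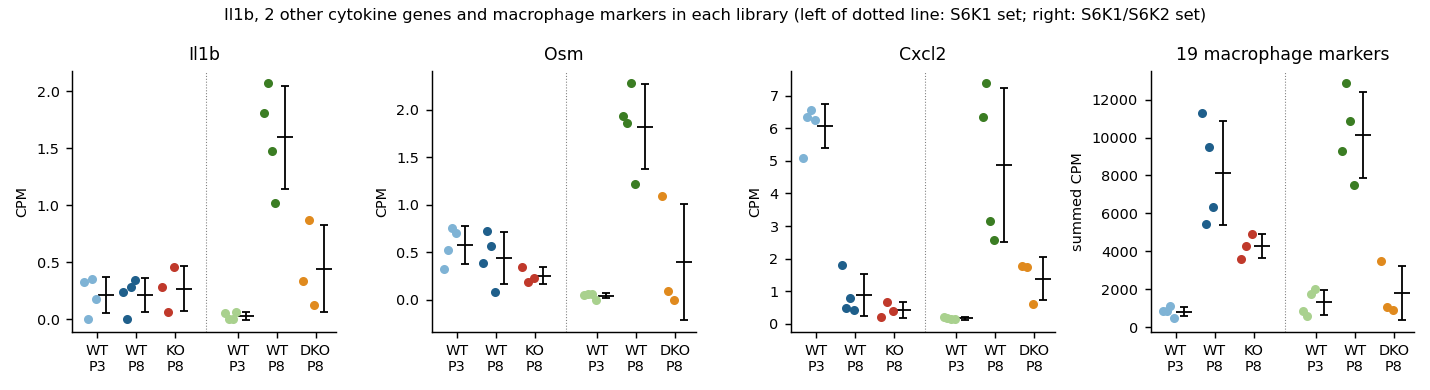
CPM (TMM-scaled, vertical axes, each with its own range) of *Il1b*, *Osm* and *Cxcl2*, and summed CPM of the 19 macrophage markers, in each library by group. Points are libraries, and the dash and bars are the mean and SD. Late WT libraries of both sets have high marker sums, whereas *Il1b* is highest in the late WT libraries of the *S6K1/S6K2* set.

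*Il1a* was at the limit of what this depth can show. It had 9 counts in all: 2 in early WT, 0 in late WT and 1 in late KO libraries of the *S6K1* set, with 1, 4 and 0 in the corresponding groups of the *S6K1/S6K2* set. No count was found in 16 of the 22 libraries. Exact two-sided permutation tests gave *P* = 0.429 and 0.714 for late against early WT, 0.857 for KO and 0.571 for DKO against late WT, so a difference was not detectable at this depth.

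*Il33*, which encodes an alarmin that acts on ST2, had its highest levels in late DKO MEFs. The 3 DKO libraries were at 2.78, 1.65 and 3.77 CPM. Late WT libraries of the set were at 1.03, 0.760, 1.47 and 0.511 CPM, and early WT libraries at 0.939, 0.673, 0.843 and 1.19 CPM. All 3 DKO libraries lay above all 8 WT libraries of their set. Against early WT MEFs, *Il33* passed the test (log2 1.60, SE 0.42, adjusted *P* = 0.0220), a call lost without early WT replicate 1 (adjusted *P* = 0.0549), 2 (0.0638) or 3 (0.0516), or without DKO replicate 1 (0.0581) or 3 (0.0813). Against late WT MEFs, the difference of 1.53 (SE 0.42, 95% interval 0.62 to 2.44) had an adjusted *P* of 0.0604, and it passed with DESeq2 (0.0140), in a fit of all 6 groups (0.0487) and without late WT replicate 3 (0.0469).

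In the *S6K1* set, *Il33* was at 1.98 ± 0.562 CPM in early WT, 1.81 ± 1.11 CPM in late WT and 1.83 ± 0.345 CPM in late KO MEFs (SD, n = 4, 4 and 3). The DKO libraries overlapped these groups, and WT MEFs were not tested between the sets. KO and late WT MEFs did not separate (log2 0.01, adjusted *P* = 0.996), and the effect of KO minus that of DKO was −1.53 (unadjusted *P* = 0.0230, adjusted *P* = 0.395).

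*Il18*, a partner of IL-1β as a caspase-1 substrate, had mean levels of 1.58 to 3.04 CPM in the 6 groups, and each range overlapped its neighbour in order. It was highest in late WT MEFs of both sets, at 2.71 ± 1.14 and 3.04 ± 1.28 CPM (SD, n = 4), against 1.58 ± 0.996 and 2.24 ± 0.488 CPM in early WT MEFs. The passage differences of 0.75 (95% interval −0.43 to 1.93, adjusted *P* = 0.402) and 0.47 (adjusted *P* = 0.409) did not pass. Neither did KO (−0.56, adjusted *P* = 0.775) or DKO (−0.72, adjusted *P* = 0.388) against late WT MEFs.

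*Il1rn*, the brake on IL-1 receptors, was much more abundant than the agonists and varied mostly between single libraries. Late DKO libraries were at 34.8, 228 and 66.6 CPM and late WT libraries of the set at 69.1, 25.6, 24.0 and 15.5 CPM. Replicate 2 of the DKO group was the highest of the 22 libraries, while the other DKO libraries overlapped late WT libraries. The log2 difference of 1.69 (SE 0.68) had an adjusted *P* of 0.207, and without DKO replicate 2 it was 0.60. In the *S6K1* set, KO replicate 2 was likewise apart, at 113 CPM against 24.8 and 23.1 CPM in the other KO libraries and 19.8 to 37.7 CPM in late WT libraries. There the log2 difference was 0.81 (adjusted *P* = 0.589), and it was −0.37 without that library.

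*Il1r1*, the chain that binds IL-1, was expressed in every library, at 5.30 to 33.6 CPM. Group means were 17.6 ± 8.37, 19.5 ± 9.02 and 11.5 ± 5.62 CPM in early WT, late WT and KO MEFs, and 26.1 ± 6.66, 14.6 ± 7.34 and 21.1 ± 9.83 CPM in early WT, late WT and DKO MEFs of the other set (SD, n = 4, 4 and 3). The groups overlapped throughout. The difference nearest to passing was late against early WT in the *S6K1/S6K2* set, at −0.81 on the log2 scale (95% interval −1.64 to 0.02, adjusted *P* = 0.169).

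*Il1rap*, the accessory chain that *Il1r1* and *Il1rl1* products share, had group means between 17.6 and 31.3 CPM, a ratio of 1.78 that was the smallest of the genes that passed the filter. In the *S6K1* set, early WT libraries were at 17.6, 14.3, 24.8 and 13.8 CPM. Late WT libraries were at 20.9, 25.0, 29.9 and 28.9 CPM, and late KO libraries at 31.5, 28.3 and 27.9 CPM. All 3 KO libraries were above all 4 early WT libraries. That difference, which holds both passage and genotype, passed the test at 0.72 on the log2 scale (SE 0.21, adjusted *P* = 0.0463). The call was lost without early WT replicate 1 (adjusted *P* = 0.0570), 2 (0.115) or 4 (0.101) and without KO replicate 1 (0.131), 2 (0.0951) or 3 (0.109). It was also lost without the count filter (0.0522), with Y-linked transcripts, which mark male embryos, as a covariate (0.0821) and in a fit of those groups alone (0.0784). Late against early WT MEFs differed by 0.56 (SE 0.20, adjusted *P* = 0.0816), which passed without early WT replicate 3 (0.0121), with DESeq2 (0.0373) and with the Y-linked covariate (0.00857). KO against late WT MEFs differed by 0.16 (adjusted *P* = 0.834).

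In the *S6K1/S6K2* set, *Il1rap* was at 25.9 ± 1.26, 21.4 ± 7.92 and 31.3 ± 9.33 CPM in early WT, late WT and DKO MEFs (SD, n = 4, 4 and 3). Late DKO against late WT MEFs differed by 0.54 (unadjusted *P* = 0.0493, adjusted *P* = 0.269), and this passed without late WT replicate 1 (0.84, adjusted *P* = 0.0304). The difference between the sets in the passage effect was 0.84 (SE 0.31, unadjusted *P* = 0.0143, adjusted *P* = 0.350).

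*Il1rl1* (ST2) was the most abundant of the 9 genes and spread widely at passage 8. Early WT libraries of the *S6K1* set were at 341, 251, 343 and 348 CPM, and late WT libraries at 269, 211, 211 and 618 CPM. Late KO libraries were at 106, 213 and 81.1 CPM. The KO libraries were below all early WT libraries but overlapped the late WT libraries, of which replicate 4 stood far above the rest. KO against late WT MEFs gave −1.29 (SE 0.41, 95% interval −2.19 to −0.39, adjusted *P* = 0.311). KO against early WT MEFs gave −1.27 (SE 0.41, adjusted *P* = 0.0663), which passed without KO replicate 2 (−1.76, adjusted *P* = 0.0414), with DESeq2 (0.0157) and in a fit of those groups alone (0.0458).

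In the *S6K1/S6K2* set, *Il1rl1* was at 460, 490, 340 and 243 CPM in early WT and 303, 161, 164 and 58.1 CPM in late WT libraries. Late DKO libraries were at 116, 208 and 180 CPM, within the late WT range. Late against early WT MEFs gave −1.13 (SE 0.41, adjusted *P* = 0.0926), which passed without late WT replicate 1 (−1.56, adjusted *P* = 0.0240), with DESeq2 (0.0212) and with the Y-linked covariate (0.0403). DKO against late WT MEFs gave −0.04 (95% interval −1.02 to 0.93, adjusted *P* = 0.975), and against early WT MEFs −1.18 (adjusted *P* = 0.0952), which passed with DESeq2 (0.0260) and in a fit of those groups alone (0.0214). The late KO, DKO and *S6K1/S6K2* WT groups thus had means of 134, 168 and 172 CPM, whereas late WT MEFs of the *S6K1* set were at 327 ± 196 CPM (SD, n = 4). That last mean was raised by replicate 4 at 618 CPM, with the rest of the group at 211 to 269 CPM. The difference between the sets in the passage effect was 1.19 (adjusted *P* = 0.532) and did not pass.

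*Il6* had its highest levels in late KO MEFs. The 3 KO libraries were at 13.3, 8.60 and 14.6 CPM. Late WT libraries of the *S6K1* set were at 7.13, 2.24, 1.19 and 4.67 CPM and early WT libraries at 5.95, 1.87, 7.74 and 2.11 CPM, all below the KO libraries. The log2 difference of KO from late WT MEFs was 1.69 (SE 0.58, 95% interval 0.42 to 2.95), with an unadjusted *P* of 0.0133 and an adjusted *P* of 0.338 (edgeR), so it did not pass. In that comparison 0.0425% of all genes passed, and 7.05% were higher in every KO than in every late WT library.

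With passage alone, *Il6* did not separate in either set. The log2 differences of late from early WT MEFs were −0.25 (95% interval −1.45 to 0.95, adjusted *P* = 0.813) and −0.64 (95% interval −1.80 to 0.52, adjusted *P* = 0.442). In the *S6K1/S6K2* set, early WT libraries were at 1.77, 1.96, 6.62 and 9.66 CPM, late WT libraries at 3.50, 3.32, 2.80 and 2.88 CPM, and late DKO libraries at 8.44, 4.07 and 2.47 CPM. DKO and late WT libraries overlapped (log2 0.65, 95% interval −0.60 to 1.90, adjusted *P* = 0.609). The effect of KO minus that of DKO was 1.02 (adjusted *P* = 0.719), so the sets were not shown to differ.

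**Figure D3:**
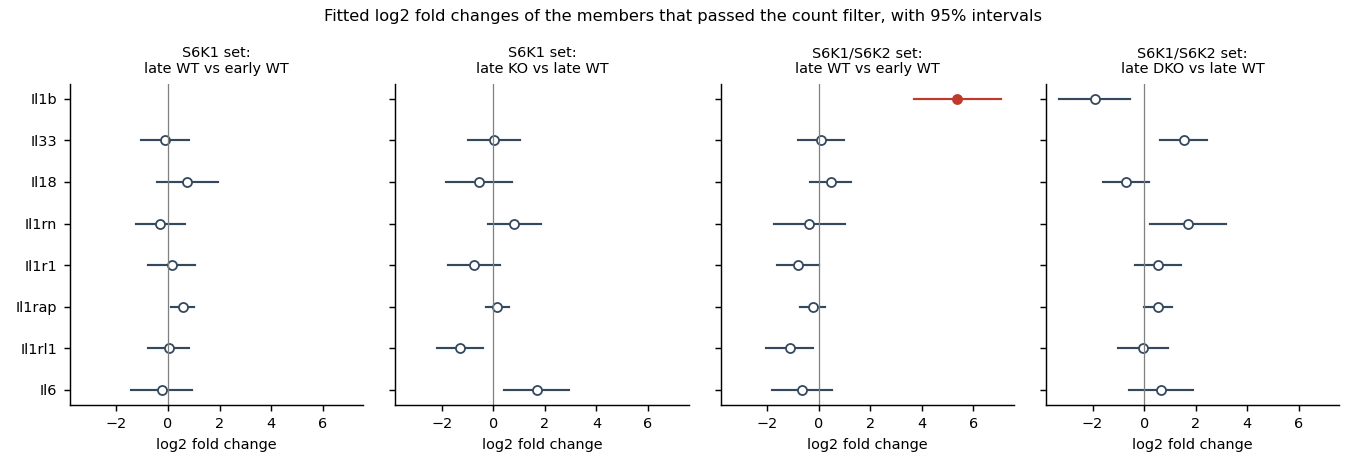
Log2 fold change with its 95% interval (horizontal axis) of the genes that passed the count filter, for late against early WT MEFs and for KO or DKO against late WT MEFs in each set. Red filled points passed an adjusted *P* of 0.05 with edgeR, which in these 4 comparisons was *Il1b* with passage in the *S6K1/S6K2* set alone.

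Counted over the 9 genes, calls were few, and they are set beside the share of all genes called. For late against early WT MEFs of the *S6K1* set, 0 of 7 tested genes passed with edgeR (1 at an unadjusted *P* under 0.05, and 1 with DESeq2), where 12.9% of all genes passed and 27.6% had an unadjusted *P* under 0.05. For KO against late WT MEFs, 0 of 7 passed (2 unadjusted, 0 with DESeq2), where 0.0425% did (10.6% unadjusted). For KO against early WT MEFs, 1 of 7 passed (*Il1rap*), where 11.2% did. For late against early WT MEFs of the *S6K1/S6K2* set, 1 of 8 passed (*Il1b*; 2 unadjusted), where 13.2% did (31% unadjusted). For DKO against late WT MEFs, 0 of 8 passed (4 unadjusted, 1 with DESeq2), where 4.78% did (18.4% unadjusted), and for DKO against early WT MEFs 2 of 8 passed (*Il1b* and *Il33*), where 18.3% did.

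Some groups also separated without a call. In KO against late WT MEFs, 1 gene was higher without overlap (*Il6*) and none lower, where 7.05% and 6.19% of genes were. In late against early WT MEFs, *Il1b* was higher without overlap in the *S6K1/S6K2* set, where 10.3% of genes were, and none separated in the *S6K1* set, where 18.3% did so in either direction. In DKO against late WT MEFs, *Il33* was higher and *Il1b* lower without overlap, where 6.37% and 10% of genes were. Against early WT MEFs, *Il1rap* and *Il6* were higher and *Il1rl1* lower in KO MEFs without overlap (14.1% and 13.1% of genes), and *Il1b* and *Il33* were higher and *Il1rl1* lower in DKO MEFs (14.1% and 16.4%). Neither difference between the sets was passed by any of 8 genes with edgeR: for passage 2 had an unadjusted *P* under 0.05 and 1 passed with DESeq2 (0.712% of all genes with edgeR, and 9.55% unadjusted), and for genotype 1 and 0 (0.00672%, and 10.9% unadjusted).

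Among genes known to be induced by IL-1 and NF-κB, *Cxcl2*, which encodes a neutrophil chemokine, went opposite ways with passage in the sets. Of 16 tested genes of a list of 19, 5 rose and none fell in late against early WT MEFs of the *S6K1/S6K2* set (median log2 0.38 against 0.01 over all genes), while none rose and 2 fell in the *S6K1* set (median −0.06 against −0.04), where 13.2% and 12.9% of all genes passed. *Cxcl2* rose from 0.130 to 0.221 CPM in early to 2.56 to 7.40 CPM in late WT libraries of the *S6K1/S6K2* set (log2 4.81, adjusted *P* = 0.000312). In the *S6K1* set it fell from 5.09 to 6.58 CPM to 0.425 to 1.80 CPM (log2 −2.78, adjusted *P* = 0.00154). The difference between the sets in the passage effect was −7.56 (adjusted *P* = 1.25e-06) and passed without each of 16 libraries in turn. Early WT MEFs of the sets thus already differed in *Cxcl2*, with no overlap between their ranges.

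The others that rose in the *S6K1/S6K2* set were *Tnfaip3* and *Nfkbia*, which encode feedback inhibitors of NF-κB (log2 2.14, adjusted *P* = 0.00141, and log2 1.28, adjusted *P* = 0.000816), and, outside the rule for naming genes and named after their values were seen, the monocyte chemokine gene *Ccl2* (1.31, adjusted *P* = 0.0328) and the acute-phase gene *Saa3* (2.72, adjusted *P* = 0.0190). *Nfkbiz*, a co-regulator of NF-κB, was the other gene that fell in the *S6K1* set (log2 −1.15, adjusted *P* = 0.00504). In late DKO against late WT MEFs, *Cxcl2* and *Tnfaip3* were lower (log2 −1.86, adjusted *P* = 0.0456, and log2 −1.26, adjusted *P* = 0.0491). The *Cxcl2* call was kept without late WT replicate 4 (adjusted *P* = 0.0326) but lost without each of the other 6 libraries (at most 0.153), with the Y-linked covariate (0.111) and in a fit of those groups alone (0.104). The *Tnfaip3* call was lost without each of the 7 libraries in turn (0.0603 to 0.167), with RLE scaling (0.0532), in a fit of all 6 groups (0.0549) and in a fit of those groups alone (0.0762). In late KO against late WT MEFs 0 of 16 passed with edgeR (2 unadjusted, 0 with DESeq2). Of all genes, 0.0425% passed for KO and 4.78% for DKO against late WT MEFs (10.6% and 18.4% unadjusted).

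Genes for the processing and release of IL-1 were led by *Casp1*, which encodes the protease that cuts pro-IL-1β. *Casp1* was at 1.59 ± 0.142 CPM in early and 14.9 ± 4.46 CPM in late WT MEFs of the *S6K1* set (SD, n = 4; log2 3.22, adjusted *P* = 1.46e-05). In the *S6K1/S6K2* set it was at 1.43 ± 0.867 and 15.3 ± 2.01 CPM (log2 3.46, adjusted *P* = 0.00223). The rises did not separate between the sets (difference −0.20, adjusted *P* = 0.934). *Casp1* is also expressed by macrophages, whose markers rose in both sets, and their part in it was not tested.

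*Pycard*, the adaptor that recruits caspase-1, also rose with passage in both sets (log2 1.39, adjusted *P* = 0.0238, and 1.72, adjusted *P* = 0.0112), though in the *S6K1* set not without early WT replicate 4 (adjusted *P* = 0.0561) or late WT replicate 1 (0.0678). *Ninj1*, which ruptures the membrane of dying cells, rose in the *S6K1/S6K2* set (0.73, adjusted *P* = 0.00265). Of the 10 genes of this list, 2 and 3 thus rose with passage and none fell, where 12.9% and 13.2% of all genes passed (medians 0.31 and 0.35, against −0.04 and 0.01 over all genes). In DKO against late WT MEFs, *Gsdmd*, the pore former, was lower (−1.27, adjusted *P* = 0.00771), a call lost without DKO replicate 2 (adjusted *P* = 0.0541) and in a fit of all 6 groups (0.0703), while *Casp1* was at 4.27 ± 3.82 CPM (−1.86, adjusted *P* = 0.0763). In KO against late WT MEFs 0 of 10 passed with edgeR (3 unadjusted, 1 with DESeq2), with *Casp1* at 6.70 ± 1.19 CPM. The shares of all genes that passed against late WT MEFs were 0.0425% for KO (10.6% unadjusted) and 4.78% for DKO (18.4% unadjusted).

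Genes that carry the signal from the IL-1 receptor, such as adaptors and kinases, gave few calls. Of 15 tested genes, none passed in late against early WT MEFs of either set with edgeR (2 and 6 at an unadjusted *P* under 0.05, and 1 and 3 with DESeq2), where 12.9% and 13.2% of all genes passed and 27.6% and 31% had an unadjusted *P* under 0.05. None passed in KO or DKO against late WT MEFs (2 and 2 unadjusted, 0 and 1 with DESeq2), where 0.0425% and 4.78% of all genes did (10.6% and 18.4% unadjusted). Their medians were within 0.08 of 0 in these comparisons. *Irak2*, a kinase of this pathway, was higher in KO than in early WT MEFs (0.96, adjusted *P* = 0.0443), with means of 21.3, 25.5 and 41.9 CPM in early WT, late WT and KO MEFs of the *S6K1* set. That call was lost without early WT replicate 2 (adjusted *P* = 0.103) or 4 (0.101) or KO replicate 1 (0.121) or 3 (0.169), with the Y-linked covariate (0.0824) and in a fit of those groups alone (0.0856). *Irak1*, a related kinase, was higher in DKO than in early WT MEFs (0.65, adjusted *P* = 0.0141), though not without DKO replicate 2 (0.0892).

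Around *Il1r1* and *Il1rl1* on chromosome 1, the neighbouring receptor genes had other levels. *Il1r2*, which encodes a decoy receptor, had at most 16 counts in any library, and *Il18r1*, the IL-18-binding chain, at most 3. *Il1rl2*, the receptor for IL-36 cytokines, was at 11.6 ± 4.89, 11.3 ± 4.40 and 4.93 ± 1.56 CPM in early WT, late WT and KO MEFs (SD, n = 4, 4 and 3). Its difference in KO from late or early WT MEFs did not pass with edgeR. *Il18rap*, the IL-18 accessory chain, was at 9.29, 6.32 and 5.67 CPM in early WT, late WT and DKO MEFs, and was lower in DKO than in early WT MEFs (−0.70, adjusted *P* = 0.0449), a call kept without DKO replicate 2 (0.0165) and lost without each of the other 6 libraries (0.0692 to 0.148), without the count filter (0.0799) and in a fit of those groups alone (0.0646). Among the other family members tested (4 and 3 of 13), none passed in late against early WT MEFs with edgeR (1 and 2 unadjusted, 0 and 1 with DESeq2). There, 12.9% and 13.2% of all genes passed (27.6% and 31% unadjusted). None passed in KO and DKO against late WT MEFs (1 and 0 unadjusted, 0 and 0 with DESeq2), where 0.0425% and 4.78% of all genes did (10.6% and 18.4% unadjusted).

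On the IL-6 side, the receptor chains moved with passage although *Il6* did not pass. *Il6ra*, the IL-6-binding chain, rose in both sets (log2 1.40, adjusted *P* = 0.00328, and 1.26, adjusted *P* = 0.0127), in the *S6K1/S6K2* set not without early WT replicate 1 (adjusted *P* = 0.0510). Macrophage markers also rose in both sets, and their part in *Il6ra* was not tested. *Il6st*, the signalling chain gp130, fell in the *S6K1/S6K2* set (−1.15, adjusted *P* = 0.00905), from 490 to 216 CPM, and was at 295 and 218 CPM in early and late WT MEFs of the *S6K1* set. *Socs3*, a feedback inhibitor, fell in the *S6K1* set (−1.25, adjusted *P* = 0.0383), a call kept without late WT replicate 4 (0.00533) and lost without each of the other 7 libraries (0.056 to 0.101), without the count filter (0.112) and in a fit of those groups alone (0.0627). Of 11 genes of this list, 1 rose and 1 fell in the *S6K1* set and 1 rose and 2 fell in the other (medians −0.32 and −0.36, against −0.04 and 0.01 over all genes), where 12.9% and 13.2% of all genes passed in either direction. In KO and DKO against late WT MEFs none of the 11 passed with edgeR (2 and 4 unadjusted, 1 and 0 with DESeq2), where 0.0425% and 4.78% of all genes did (10.6% and 18.4% unadjusted).

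Among cytokines related to IL-6, *Osm*, which encodes oncostatin M, also had low counts that differed between the groups. It had 1, 1, 1 and 0 counts in early WT, 32, 27, 31 and 19 in late WT and 13, 1 and 0 in late DKO libraries of the *S6K1/S6K2* set (late against early WT, log2 5.10, adjusted *P* = 0.00529). *Osm* entered the tests of that set through its late WT libraries, the group where it is high. Its *P* values are therefore not independent of that group's level, which also enters the difference between the sets. In the *S6K1* set *Osm* had 6 to 13 counts in early and 1 to 10 in late WT libraries. The difference between the sets in the passage effect was −5.42 (adjusted *P* = 0.0209), lost without early WT replicate 1 (adjusted *P* = 0.0537) or 4 (0.0565) of the *S6K1/S6K2* set. *Osmr*, the oncostatin M receptor chain, fell with passage in both sets (−0.95, adjusted *P* = 0.00391, and −0.76, adjusted *P* = 0.00544). It was higher in DKO than in late WT MEFs (0.81, adjusted *P* = 0.0138), as was *Il11ra1*, the IL-11 receptor chain (0.58, adjusted *P* = 0.0444). The *Osmr* call was lost without DKO replicate 2 (adjusted *P* = 0.0678) or 3 (0.0613). The *Il11ra1* call was lost without late WT replicate 1 (0.0742), 3 (0.0892) or 4 (0.105) or DKO replicate 2 (0.194) or 3 (0.0787), in a fit of all 6 groups (0.285) and in a fit of those groups alone (0.0902).

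Across the 22 libraries, the genes whose log2 CPM was most like that of each gene were sought among 13003 genes of at least 1 mean CPM, as a description over libraries that share groups and depth. For *Il6* they were *Fam59b* (Pearson's r = 0.798) and *Irak2* (0.792). For *Il1r1* they were *Acvr2a* (0.921), *Mfap2* (0.903) and *Cacna1g* (0.882), and for *Il1rap* *Atl3* (0.874), *Strn* (0.848) and *Fam188a* (0.837). For *Il1rl1* the nearest genes with a symbol were *St8sia2* (0.813) and *Rtp4* (0.809), for *Il33* *Matn4* (0.815) and *Nkd2* (0.813), for *Il1rn* *Ppapdc2* (0.804) and *Pi15* (0.784), and for *Il18* *Leng9* (0.789) and *Abcc4* (0.757). Among the 9 genes themselves, r ran from −0.390 (*Il1b* with *Il1rl1*) to 0.488 (*Il1r1* with *Il1rl1*). The outside genes were picked as the highest of 13003 candidates for each gene, so their r cannot be compared with those among the 9 genes.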

How the data were processed

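RNA of 22 MEF libraries was sequenced as stranded, single-end mRNA libraries. The authors deposited raw counts per gene for 55401 identifiers, with no normalization. The methods name TopHat and mm9 with HTSeq, whereas the submitters' processing notes name STAR 2.7.1a, mm10 and DESeq2 1.28.1. Of the identifiers, 22812 are absent from the mm9 annotation GENCODE vM1, so build and counter remain unsettled, and coordinates here are those of RefSeq GRCm38.p6. Symbols came from vM1 and named 32589 identifiers (97.0% of counts). Exon lengths are of vM1.

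Groups were taken from the labels. Among 30 pairs of libraries of a group, chi-square per degree of freedom was 20.6 to 265.7, so none was a repeat. With edgeR 4.0.16 in R 4.3.3, low counts were removed by filterByExpr, TMM gave the scaling, and the robust quasi-likelihood F test was run on the 3 groups of a set, or on the 6 groups for differences between sets (first set minus second), with Benjamini-Hochberg adjustment at 0.05. CPM values share 1 TMM scaling over the 22 libraries, and log2 CPM used a prior count of 2. Genes below the filter were tested by exact two-sided permutation of CPM. Alternatives were DESeq2 1.42.0, RLE scaling, total-count scaling, no count filter, a fit of all 6 groups or of 2, a Y-linked covariate (mean log2 CPM of *Ddx3y*, *Eif2s3y*, *Kdm5d* and *Uty*) and each library left out. The pipeline was tested on simulated counts. Libraries of a group are from different embryos per the methods, but sharing of embryos between passages, of litters or of batches is not given in the labels, and *P* values measure only the spread between these libraries. Named genes were the 9 genes and, in each list, up to 3 in each direction that passed with the smallest *P*, some of which are not reported here. The members and lists were chosen with earlier results of these data known.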

Additional observations from a re-analysis of the deposited data

Results flagged for a closer look

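In 31 groups of 4 libraries tested for a library far from the rest by Dixon's criterion, of which chance sets apart about 1 in 20, *Il1rl1* gave both exceptions. In late WT MEFs of the *S6K1* set, replicate 4 was at 618.2 CPM, against 210.7 to 268.5 CPM in the other 3 libraries. In early WT MEFs of that set, replicate 2 was at 250.9 CPM, against 340.6 to 348.4 CPM in the other 3.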

How the results depend on the processing

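No paired analysis was possible because the groups share no replicate numbers in the labels. The call of *Il1b* with passage in the *S6K1/S6K2* set held under each alternative run, whereas each other call of the 9 genes was lost without single libraries or, for *Il1rap*, also under other settings, as given beside them. In the main fit, *Il1b* passed the count filter because of its late WT libraries, the group where it is high. Differences near 0 changed sign: *Il33* in KO against late WT MEFs (−0.000986 with RLE scaling, −0.00126 with DESeq2, −0.0566 with the Y-linked covariate, −0.00452 in a fit of 2 groups), *Il6* in DKO against early WT MEFs (−0.0189 with no filter, −0.00414 with 6 groups, −0.0348 with the covariate), *Il1b* in late against early WT MEFs of the *S6K1* set (−0.000900 with total scaling), and, with the covariate, *Il1rl1* (−0.0797) and *Il6* (0.0538) in late against early WT MEFs of the *S6K1* set, *Il1rap* in KO against late WT MEFs (−0.179) and *Il1rl1* in DKO against late WT MEFs (0.358). *Il1rap* in early WT MEFs of the *S6K1/S6K2* set was 27.2 CPM with total scaling. The cause was not tested.

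Counts of all genes called grew with DESeq2: from 6 to 261 (KO against late WT), 1578 to 2675 (KO against early WT), 1892 to 2845 (passage, *S6K1/S6K2* set), 686 to 1206 (DKO against late WT), 106 to 222 and 1 to 64 (differences between sets in passage and genotype). KO against late WT gave 43 with no filter, 16 with 6 groups and 38 with the covariate; KO against early WT gave 2564 with 6 groups; passage in the *S6K1* set went from 1827 to 3265 with the covariate; the genotype difference gave 3 with no filter. Leaving out each library gave 1223 to 1749 and 885 to 2247 (passage, *S6K1* and *S6K1/S6K2* sets), 2 to 9 (KO against late WT), 540 to 2055 (KO against early WT), 97 to 783 (DKO against late WT), 1163 to 2757 (DKO against early WT), and 78 to 118 and 1 to 5 (differences between sets in passage and genotype).

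Leaving out each library moved these uncalled log2 differences across 0. Passage, *S6K1* set: *Il33* −0.55 to 0.12, *Il1r1* −0.11 to 0.56, *Il1rl1* −0.48 to 0.22, *Il6* −0.76 to 0.19. KO against early WT: *Il1rn* −0.63 to 0.88, *Il33* −0.26 to 0.063, *Il18* −0.18 to 0.45. KO against late WT: *Il1rn* −0.37 to 1.17, *Il33* −0.24 to 0.44. Passage, *S6K1/S6K2* set: *Il1rn* −1.004 to 0.032, *Il33* −0.23 to 0.27. DKO against early WT: *Il18* −0.51 to 0.0053, *Il6* −0.61 to 0.54. DKO against late WT: *Il1rl1* −0.32 to 0.38. Differences between sets in passage: *Il1rn* −0.29 to 0.74, *Il33* −0.60 to 0.12, *Il18* −0.031 to 0.56, *Il6* −0.11 to 0.84, and in genotype: *Il1rn* −2.08 to 0.20, *Il18* −0.25 to 0.40. Depth limits *Il1a* and *Il1b* most, with at most 3 and 30 counts in a library.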
